A study of Mus musculus with 32 samples.

Results

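The MS4A family of membrane proteins was followed in bone marrow-derived macrophages (BMDMs) of the mouse across genotype, 4-hydroxytamoxifen (4-OHT) treatment and day. Its 10 members described here, Ms4a4a, Ms4a4b, Ms4a4c, Ms4a4d, Ms4a6b, Ms4a6c, Ms4a6d, Ms4a7, Ms4a8a and Ms4a14, are the rows of the count table whose Ensembl identifiers map to these symbols, 10 of 54281 genes in all. The list was selected on earlier results of these same libraries. Which measured values decided it is not recorded, so the genotype difference after 4-OHT is counted as used and is given below as a description with no p-value.

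BMDMs were grown with L929-conditioned medium from the bone marrow of mice that carry Cre recombinase fused to a modified oestrogen receptor in the Rosa26 locus (R26-CreERT2), a locus active in nearly all cell types, and the fusion enters the nucleus when 4-OHT binds. The cells carried loxP-flanked Trex1 on both alleles (Trex1 FL/FL) or on 1 allele beside a wild-type allele (Trex1 WT/FL). They either stayed untreated or received 4-OHT at 2 µg/ml over 22 h. RNA was taken on days 1, 2, 3 and 4 counted from removal of the drug, in 16 groups of 2 libraries each. Only 4-OHT-treated Trex1 FL/FL cells can lose all TREX1, the exonuclease that clears DNA from the cytosol. The 4-OHT-treated Trex1 WT/FL cells can lose their floxed allele, keep 1 intact allele and see the same drug and the same Cre. The sources do not say how many animals gave the cells or whether the 2 libraries of a group came from separate cultures, so p-values measure the spread between these libraries, which may be technical.

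Library totals ran from 35120505 to 63760884 counts, with a median of 44841991. Trex1 was listed at 0 counts in 6 of the 8 Trex1 FL/FL 4-OHT libraries and at 14 and 9 counts in the pair from day 2, against 758 to 3622 counts in Trex1 WT/FL cells after 4-OHT. All 8 macrophage markers checked, among them Adgre1, Csf1r and Lyz2, were counted in every library, and of the T cell list Cd3e, Cd3d and Cd3g had at most 3 counts in a library and Trac at most 31. The 2 libraries of a group correlated between 0.983 and 0.990 on the log2 scale across genes and differed by more than counting noise in each of the 16 groups.

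MS4A proteins take their name from the repeated crossing of the membrane by their core, with both ends inside the cell. CD20, the product of Ms4a1 and a marker of B cells, is a founding member. Several of them sit beside other receptors in the membrane and tune their signals: the product of Ms4a2 is the beta chain of the high-affinity IgE receptor of mast cells, MS4A4A associates with the fungal receptor dectin-1 on macrophages, MS4A4B was described in T cells, where it associates with the co-stimulatory receptor GITR, and MS4A6D associates with the complement receptor VSIG4. MS4A7 is widely used as a marker of mature macrophages, and the human MS4A4A and MS4A6A region is a locus of genetic risk for Alzheimer's disease that affects soluble TREM2.

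The 21 annotated genes named Ms4a lie together on chromosome 19 of GRCm39, from 10939657 to 11618215. Within this cluster of 679 kb the expressed members form a nearly unbroken run of neighbours: Ms4a14 (11278613 to 11291818, minus strand), Ms4a7 (11298403 to 11313510, minus), Ms4a4a (11352823 to 11370154, plus), Ms4a4c (11382131 to 11404610, plus), Ms4a4b (11412557 to 11444419, plus), Ms4a6c (11446718 to 11462204, plus), Ms4a6b (11493876 to 11508620, plus) and Ms4a6d (11563968 to 11582213, minus). Ms4a4d (11514134 to 11537905, plus) lies between Ms4a6b and Ms4a6d, and Ms4a8a (11044835 to 11058466, minus) stands far from the others. The remaining 11 Ms4a genes, Ms4a1 and Ms4a2 included, never exceeded 11 counts in a library, and 5 of them were at 0 in all 32 libraries.

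**Figure D1:**
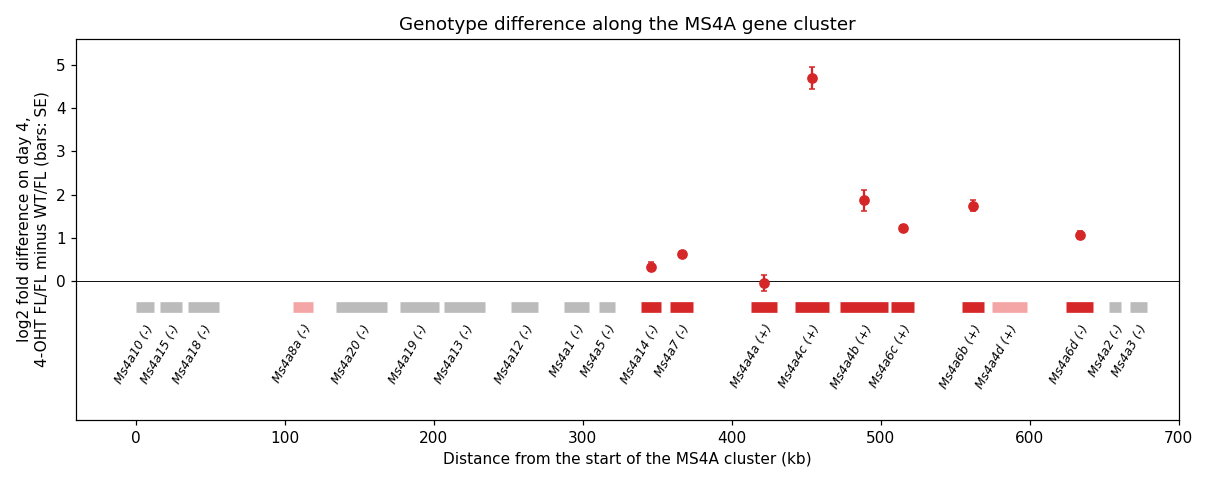
Log2 fold difference of Trex1 FL/FL against Trex1 WT/FL libraries after 4-OHT on day 4 (points, bars are SE, 2 libraries per group) above the position of each Ms4a gene in kb from the start of the cluster, with the strand in brackets. Red boxes are the 8 members with a point, pale boxes Ms4a8a and Ms4a4d, which had few or no counts, and grey boxes the other family genes. The points run from -0.04 for Ms4a4a to 4.69 for its neighbour Ms4a4c.

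The members are close copies of each other in places, which bears on how reads were shared among them. The first 120 coding bases of the Ms4a4 genes (joined across exons, from the GRCm39 annotation) are shown because Ms4a4c, the member with the largest genotype difference, differs from Ms4a4b and Ms4a4d there at few positions; capitals mark bases that differ from Ms4a4c.
Ms4a4c: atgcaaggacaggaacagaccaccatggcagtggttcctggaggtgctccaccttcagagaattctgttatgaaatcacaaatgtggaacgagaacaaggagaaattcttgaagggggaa
Ms4a4b: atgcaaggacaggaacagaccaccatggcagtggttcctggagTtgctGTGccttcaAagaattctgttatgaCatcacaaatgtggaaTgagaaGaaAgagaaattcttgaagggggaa
Ms4a4d: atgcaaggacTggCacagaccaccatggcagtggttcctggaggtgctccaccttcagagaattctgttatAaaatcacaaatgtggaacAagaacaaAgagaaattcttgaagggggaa
Ms4a4b differed from Ms4a4c at 9 of these 120 bases and Ms4a4d at 5. Over the whole coding sequence, Ms4a4b and Ms4a4c were 91.8% identical, Ms4a4c and Ms4a4d 85.8%, and Ms4a4a and Ms4a4c 59.9%. The same stretch of the Ms4a6 genes is shown with capitals for bases that differ from Ms4a6b.
Ms4a6b: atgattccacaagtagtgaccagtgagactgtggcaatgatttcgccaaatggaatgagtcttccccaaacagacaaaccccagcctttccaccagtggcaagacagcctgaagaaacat
Ms4a6c: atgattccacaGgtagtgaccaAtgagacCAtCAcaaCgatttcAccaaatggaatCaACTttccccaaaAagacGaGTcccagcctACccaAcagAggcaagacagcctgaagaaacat
Ms4a6d: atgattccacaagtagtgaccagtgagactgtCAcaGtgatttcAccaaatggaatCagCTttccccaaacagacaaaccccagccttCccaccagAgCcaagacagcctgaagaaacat
Here Ms4a6c differed at 20 bases and Ms4a6d at 10, and the coding sequences of Ms4a6b and Ms4a6d were 80.2% identical. Of the 1904 different words of 31 bases in the annotated transcripts of Ms4a4c, 16% also occurred in other genes, most of them (232) in Ms4a4b, so the split of reads between this pair is uncertain, and its part in the much lower Ms4a4b values was not tested. The share was 9.47% for Ms4a6c, 8.92% for Ms4a6d, 8.2% for Ms4a4b and 8.08% for Ms4a6b, and it was 0 for Ms4a4a and Ms4a14. Ms4a6c also overlaps BE692007 on the opposite strand over 3751 bases. Since the strand setting of the libraries is not given, reads of the pair cannot be told apart. BE692007 was listed at no more than 221 counts where Ms4a6c had at least 4315, but these counts rest on the same assignment of reads and cannot settle the split.

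The 250 bases before the annotated start of the Ensembl canonical transcript are shown for Ms4a4c and Ms4a4b, a pair of members that stood higher in 4-OHT-treated Trex1 FL/FL cells on day 4, with capitals for the ETS core GGAAGT or its reverse complement (GRCm39). The first lies at chr19:11384767-11385016 and the second at chr19:11420687-11420936, both on the plus strand. The last 20 bases of the Ms4a4b window lie in an exon of another isoform. The annotated genes begin further upstream, at 11382131 for Ms4a4c and 11412557 for Ms4a4b, and Ms4a6b likewise begins upstream of its window. Promoters of such other isoforms were not searched.
Ms4a4c: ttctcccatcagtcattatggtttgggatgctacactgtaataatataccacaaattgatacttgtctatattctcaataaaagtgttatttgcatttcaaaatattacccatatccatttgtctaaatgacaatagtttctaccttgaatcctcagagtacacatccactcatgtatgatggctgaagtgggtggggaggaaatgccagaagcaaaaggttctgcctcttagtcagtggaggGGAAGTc
Ms4a4b: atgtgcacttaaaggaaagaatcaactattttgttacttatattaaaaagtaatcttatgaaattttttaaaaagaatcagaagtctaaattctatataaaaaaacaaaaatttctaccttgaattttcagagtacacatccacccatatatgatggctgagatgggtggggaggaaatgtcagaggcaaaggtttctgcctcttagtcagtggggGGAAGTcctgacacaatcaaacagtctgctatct
The ETS core is read by factors such as PU.1, the myeloid lineage regulator, and it occurred in this window of 6 members (Ms4a4b, Ms4a4c, Ms4a4d, Ms4a6b, Ms4a6d and Ms4a7), against 19% of 21502 promoters of the same length searched on both strands. This motif was added after the data were seen. Within 1000 bases it occurred before 8 members, against 48.3% of all promoters. The core of the interferon-stimulated response element (GAAA, any 2 bases, GAAA), the STAT site TTCNNNGAA and the ETS-IRF composite (GGAA, any 2 bases, GAAA) were found in this window of 0 of the 10 members, against 3.32%, 7.66% and 2.53% of all promoters. Within 1000 bases the response element core occurred before Ms4a4d (13.7% of all promoters), the STAT site before Ms4a14 and Ms4a4a (28.6%) and the composite before Ms4a4a and Ms4a7 (10.5%). The composite and the other patterns can overlap each other, and a match or its lack says only which letters stand in the window.

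All values below are CPM, counts divided by the library total after scaling by the trimmed mean of M values (TMM), and a mean is given with its SD over 2 libraries. A gene was called when the edgeR quasi-likelihood test gave a Benjamini-Hochberg adjusted p below 0.01 over the 15257 genes that passed the low-count filter and the log2 fold change was beyond 1.5 in size. Of the 10 members, 9 passed the filter. Ms4a4d was at 0 counts in 27 of 32 libraries and had at most 4, where 3 counts, the limit that a count of 0 allows, equal 0.0471 to 0.0854 CPM. Ms4a8a, described in alternatively activated macrophages, passed the filter with only 0 to 23 counts per library, so its differences were not detectable at this depth and are not described further.

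The 8 expressed members all had their lowest levels on day 1, in each of the 4 combinations of genotype and treatment. In the 16 untreated libraries, taken as the mean of both genotypes, 7 of the 9 tested members were called higher on day 2 than on day 1, where 6.32% of all tested genes were called in either direction, and the median log2 change over the 9 members was 2.00 against 0.0079 over all genes. From day 2 to day 3, 1 member was called higher (6.76% of all genes called), with a median of 0.71 against 0.04. From day 3 to day 4, 1 member was called, and it was lower (1.21% of all genes), with a median of -0.50 against 0.0017.

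**Figure D2:**
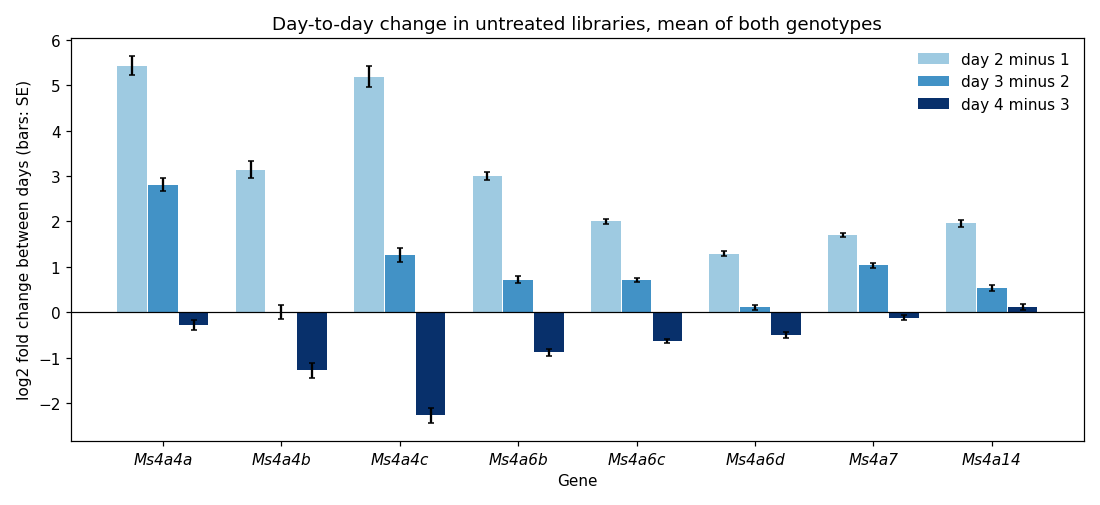
Log2 fold change between successive days in untreated libraries for each of the 8 expressed members (bars are means of both genotypes, whiskers SE, 4 libraries per day). The step from day 1 to day 2 is upward for all 8, from 1.29 for Ms4a6d to 5.43 for Ms4a4a, and the step from day 3 to day 4 is downward for all but Ms4a14.

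Ms4a4a and Ms4a4c had the steepest course. Ms4a4a, the dectin-1 partner, measured 0.579 to 0.924 CPM in the 4 untreated libraries of day 1, 29.8 to 37.8 on day 2, 212 to 250 on day 3 and 162 to 206 on day 4. It rose by 5.43 ± 0.21 (log2, SE) to day 2 (edgeR adjusted p = 1.32e-13) and by a further 2.81 ± 0.14 to day 3 (adjusted p = 3.76e-12), and it was the only member called in the second step. Its day 4 value differed from day 3 by -0.28 ± 0.12, which missed the threshold (adjusted p = 0.0959). None of the ranges of days 1, 2 and 3 overlapped, while those of days 3 and 4 stood next to each other, with 206 below 212.

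Ms4a4c measured 0.997 to 1.99 CPM in the untreated libraries of day 1, 41.2 to 57.2 on day 2, 105 to 125 on day 3 and 18.6 to 29.5 on day 4. The day 4 values thus lay below those of day 2 as well as day 3. Its rise to day 2 was 5.19 ± 0.23 (log2, SE, edgeR adjusted p = 1.09e-12), its change to day 3 was 1.26 ± 0.15 (adjusted p = 1.76e-06, inside the fold limit), and from day 3 to day 4 it fell by 2.27 on the log2 scale (SE 0.16, adjusted p = 9.59e-09), the one called decrease in the family.

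The other members changed less from day to day. Ms4a4b went from 0.348 to 0.716 CPM on day 1 to between 4.07 and 4.68 on day 2 and between 1.37 and 2.38 on day 4. Its rise to day 2 was 3.14 ± 0.19 (log2, SE, edgeR adjusted p = 6.16e-14), it differed by 0.00047 ± 0.16 between days 2 and 3, and on day 4 it was lower than on day 3 by a log2 difference of -1.28 ± 0.17 (adjusted p = 1e-06), short of the fold limit. Its counts per library ran from 15 to 415 over all 32 libraries.

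Ms4a6b, Ms4a6c and Ms4a6d, close relatives whose products are little characterised apart from the VSIG4 partner MS4A6D, had their highest means on day 3. Ms4a6b measured 30.8 to 36.6 CPM on day 1, 237 to 314 on day 2, 426 to 472 on day 3 and 232 to 252 on day 4, and Ms4a6c 86.5 to 108, 365 to 435, 604 to 676 and 388 to 437. Ms4a6d had the shallowest course, with 118 to 135 CPM on day 1, 272 to 332 on day 2, 324 to 344 on day 3 and 223 to 250 on day 4. The rise to day 2 was called for Ms4a6b (log2 3.00 ± 0.09, edgeR adjusted p = 5.2e-17) and Ms4a6c (2.00 ± 0.05, adjusted p = 2.73e-21) and stayed inside the fold limit for Ms4a6d (1.29 ± 0.06, adjusted p = 1.36e-14). Between days 2 and 3 the Ms4a6d ranges overlapped and its difference of 0.11 ± 0.06 missed the threshold (adjusted p = 0.166), with -0.02 under scaling by library totals alone. The step from day 3 to day 4 was -0.88 ± 0.08 for Ms4a6b (adjusted p = 3.96e-08), -0.63 ± 0.05 for Ms4a6c (3.36e-10) and -0.50 ± 0.06 for Ms4a6d (1.21e-06), all below the adjusted p limit and inside the fold limit.

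Ms4a7 and Ms4a14 reached a plateau. Ms4a7 measured 131 to 151 CPM on day 1, 405 to 483 on day 2, 898 to 955 on day 3 and 836 to 880 on day 4, and Ms4a14, a longer member whose role in macrophages is not established, 12.4 to 15.1, 49.8 to 56.8, 75 to 81.8 and 79.1 to 93.9. Both were called higher on day 2 (log2 1.70 ± 0.05, edgeR adjusted p = 4.88e-20, and 1.96 ± 0.08, adjusted p = 1.39e-16), and neither passed the test between days 3 and 4 (-0.12 ± 0.05, adjusted p = 0.0739, and 0.12 ± 0.07, adjusted p = 0.199).

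Marker genes of cell types also changed in the untreated libraries over these days. The summed level of the 8 macrophage markers was 15716 to 17361 CPM on day 1, 29399 to 33007 on day 2, 44179 to 48323 on day 3 and 28962 to 32866 on day 4. Lyz2 was the largest single part of this sum, at 11134 to 33994 CPM over all 32 libraries. By gene, the median log2 change of the 8 markers was 0.92, 0.47 and -0.15 for the steps to days 2, 3 and 4. In these bulk libraries a change in the share of a cell type and a change in RNA per cell cannot be told apart, and the part of the marker course in the MS4A values was not tested. The T cell list summed to 0.365 to 0.779 CPM on day 1 and 30.5 to 48.2 on day 3, most of it Cd4, while Cd3e, Cd3d, Cd3g, Cd8a and Zap70 had at most 3 counts, Trac had up to 31 counts and was at 0 in 17 of 32 libraries, and Lck had 1 to 26 counts. Ighm, the immunoglobulin mu heavy chain gene, named after its values were seen, measured 32 to 33.6 CPM in untreated cells on day 1 and rose by 2.41 ± 0.06 (log2, SE) to day 2 (edgeR adjusted p = 1e-20). It measured 192 to 219 CPM on day 3 and 83.1 to 111 on day 4, and its part in the MS4A values was not tested. The neutrophil and progenitor list summed to 4.54 to 17.8 CPM over all libraries. The NK, mast cell, dendritic cell and fibroblast lists summed to no more than 0.747, 1.4, 2.47 and 2.27 CPM in any library.

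No difference between the untreated genotypes passed the test. Of the tested members, 0 were called between untreated Trex1 FL/FL and Trex1 WT/FL libraries by edgeR on any day, where 0%, 0%, 0% and 0.00655% of all genes were called on days 1 to 4, and 0 members were called by DESeq2. At an unadjusted p below 0.05 there were 1, 0, 0 and 1 of the 9 members on days 1 to 4, against 7.4%, 3.85%, 3.07% and 15.8% of all genes. It was Ms4a6c both times, with log2 differences of -0.19 ± 0.07 (edgeR adjusted p = 0.612) and 0.17 ± 0.07 (adjusted p = 0.244). Ms4a4c on day 4 measured 18.6 and 20.6 CPM in Trex1 WT/FL and 25.6 and 29.5 in Trex1 FL/FL cells, a log2 difference of 0.49 ± 0.24 that missed the threshold (adjusted p = 0.327). The course was compared as well. For the change from day 3 to day 4, 0 members and 0 of all 15257 genes were called by edgeR. At an unadjusted p below 0.05 there were 0 members, against 9.73% of all genes, so the 0 says little about the members. For the change from day 1 to day 4, 0 members and 0 genes were called, with 1 member at an unadjusted p below 0.05 against 11.7% of all genes. The difference for Ms4a4c from day 3 to day 4 was 0.42 ± 0.32 (edgeR adjusted p = 0.751).

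**Figure D3:**
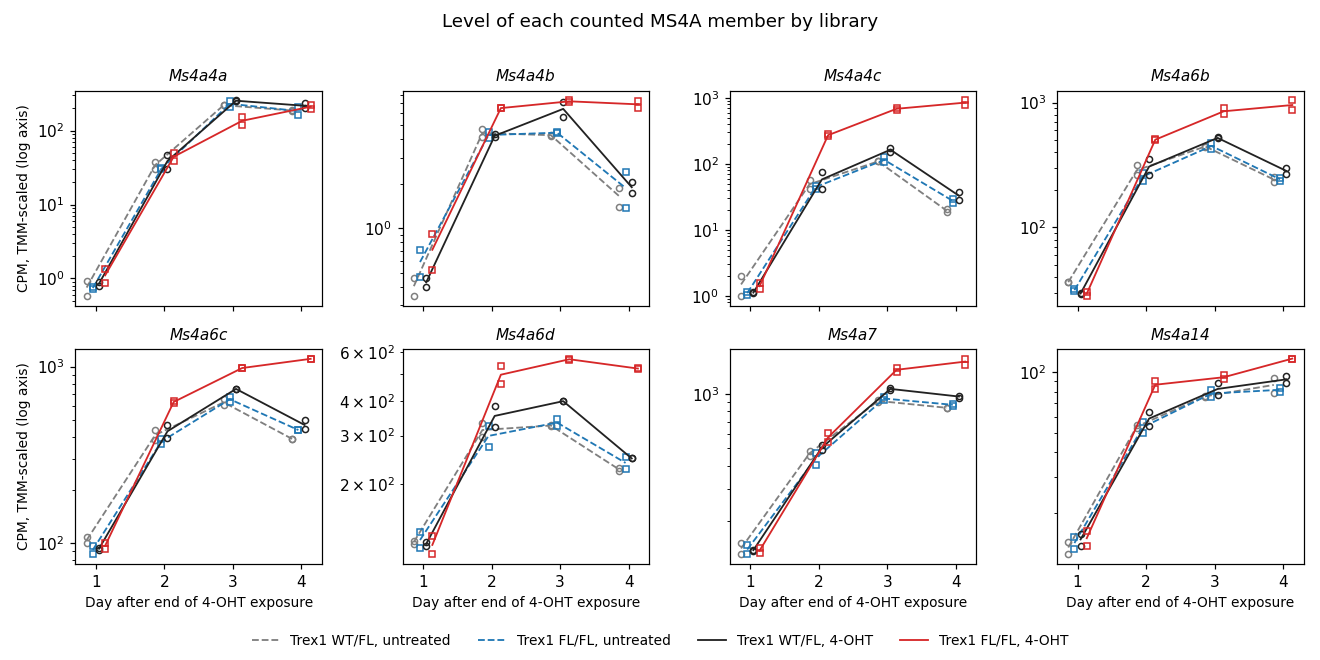
TMM-scaled CPM (log axis, its range differs between panels) of the 8 expressed members by day, counted from removal of the drug. Open symbols are single libraries and lines join the means of 2 libraries for each genotype and treatment. On day 4 the red line, Trex1 FL/FL with 4-OHT, lies above the other 3 groups for every member but Ms4a4a, and on day 3 it lies below them for Ms4a4a, at 119 and 153 CPM.

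Trex1 WT/FL cells with and without 4-OHT, which keep a working Trex1 allele, were compared next. In this contrast the drug, Cre activity and loss of the floxed Trex1 allele cannot be told apart. Of the 9 tested members, 0 differed by the edgeR call rule between Trex1 WT/FL libraries with and without 4-OHT on any day, where 0%, 0.0131%, 0.0524% and 0.0131% of all genes were called on days 1 to 4, and 0 were called by DESeq2. These 4-OHT-treated libraries are also the controls of the contrast that is counted as used in choosing the list. At an unadjusted p below 0.05 there were 2, 0, 5 and 4 of the 9 members on days 1 to 4, against 2.48%, 3.47%, 8.4% and 7.08% of all genes. On day 3 the 8 expressed members had a higher mean after 4-OHT. The median log2 difference over the 9 tested members was 0.25 on day 3 and 0.21 on day 4, against 0.00 and 0.0069 over all genes. For Ms4a4c the differences were 0.58 ± 0.21 on day 3 (adjusted p = 0.389) and 0.75 ± 0.23 on day 4 (adjusted p = 0.294), from 18.6 and 20.6 CPM untreated to 28.6 and 37.3 after 4-OHT. For Ms4a6c they were 0.25 ± 0.07 and 0.27 ± 0.07 (adjusted p = 0.16 and 0.14). Trex1 itself averaged 30.3, 119, 135 and 84.3 CPM on days 1 to 4 in untreated Trex1 WT/FL cells and 13.6, 57.2, 74.2 and 48.4 after 4-OHT.

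After 4-OHT, Trex1 FL/FL libraries of day 1 overlapped the 6 other libraries of that day for every member, and on days 2, 3 and 4 they lay above them for Ms4a4c, Ms4a6b, Ms4a6c, Ms4a6d, Ms4a7 and Ms4a14. The share of all genes that lay apart in this way was not counted, so nothing is read from such separation here or below. Between the genotypes after 4-OHT, 23%, 29.3% and 38.8% of all genes had an edgeR unadjusted p below 0.05 on days 2 to 4. By the same call rule, 0, 1, 1 and 3 of the 9 members were called higher in Trex1 FL/FL than in Trex1 WT/FL libraries on days 1 to 4, where 0.0131%, 0.583%, 0.872% and 2.98% of all genes were called in either direction, and nothing is read from these counts because the contrast counts as used in choosing the list. The median log2 difference of the 9 members was 0.02, 0.55, 0.35 and 1.24, against -0.01, -0.0097, -0.0073 and -0.04 over all genes. The differences are given for each member below, with 2 libraries per group.

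Ms4a4c stood out in size. On day 1 its level was 1.15 and 1.09 CPM in 4-OHT-treated Trex1 WT/FL and 1.54 and 1.25 in Trex1 FL/FL libraries. On day 2 the corresponding values were 74.3 and 42 against 284 and 260, on day 3 they were 151 and 177 against 711 and 657, and on day 4 they were 28.6 and 37.3 against 918 and 778. From day 2 on the 2 Trex1 FL/FL libraries thus lay above all 6 other libraries of the same day, which on day 4 ran from 18.6 to 37.3 CPM. The log2 differences were 0.31 ± 0.47, 2.23 ± 0.22, 2.06 ± 0.22 and 4.69 ± 0.25 (SE), the last a 25.8-fold difference. With each library left out in turn the day 2 difference ran from 1.87 to 2.69.

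The larger Ms4a4c difference on day 4 went with lower controls. Between days 3 and 4 the gene moved by -2.32 ± 0.23 in 4-OHT-treated Trex1 WT/FL and by 0.31 ± 0.21 in Trex1 FL/FL libraries. Over the whole course the Trex1 FL/FL level went up by 9.25 ± 0.33 from day 1 to day 4 (log2), from a mean of 1.4 ± 0.207 to 848 ± 99 CPM (SD, n = 2).

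Ms4a4b, the closest relative of Ms4a4c in coding sequence, was counted from far fewer reads. On day 4 it measured 1.72 and 2.05 CPM in Trex1 WT/FL and 7.23 and 6.51 in Trex1 FL/FL libraries, from 95 to 261 counts. The log2 differences over days 1 to 4 were 0.73 ± 0.30, 0.62 ± 0.22, 0.17 ± 0.22 and 1.87 ± 0.24. Ms4a4c had 33170 and 25713 counts in the same Trex1 FL/FL libraries of day 4. The part of reads shared with Ms4a4c in the Ms4a4b differences was not tested. On day 3 the groups overlapped, with 5.63 and 7.17 against 7.31 and 7.1, and the difference on that day was smaller than its SE. The Trex1 FL/FL level stayed at 6.48, 7.2 and 6.87 CPM on days 2, 3 and 4 while the control level went from 6.4 on day 3 to 1.89 on day 4.

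The Ms4a6 genes had intermediate differences. On day 4 the Ms4a6b values were 269 and 299 CPM in Trex1 WT/FL and 1041 and 870 in Trex1 FL/FL libraries, a log2 difference of 1.75 ± 0.12, after 0.72 ± 0.11 on day 2 and 0.71 ± 0.11 on day 3. Ms4a6c measured 440 and 495 against 1109 and 1104 on day 4, a difference of 1.24 ± 0.07, and Ms4a6d 248 and 249 against 525 and 522, a difference of 1.07 ± 0.09. For these 3 genes the Trex1 FL/FL libraries lay above all 6 other libraries on each of days 2, 3 and 4, and overlapped them on day 1. Ms4a6c and Ms4a6d stayed inside the fold limit.

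Ms4a7 and Ms4a14 differed less. Ms4a7 measured 977 and 953 CPM in Trex1 WT/FL and 1560 and 1443 in Trex1 FL/FL libraries on day 4, with log2 differences of 0.18 ± 0.07, 0.35 ± 0.07 and 0.64 ± 0.07 on days 2, 3 and 4. Ms4a14 measured 63.4 and 54.1 against 82.7 and 90.7 on day 2 and 95.7 and 88.8 against 116 and 117 on day 4, differences of 0.56 ± 0.10 and 0.34 ± 0.10, with 0.19 ± 0.10 in between. Both genes lay above all other libraries of the day in Trex1 FL/FL cells on days 2 to 4.

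Ms4a4a ran against the rest. On day 3 it measured 257 and 250 CPM in 4-OHT-treated Trex1 WT/FL and 119 and 153 in Trex1 FL/FL libraries, a log2 difference of -0.90 ± 0.18, and both Trex1 FL/FL libraries lay below all 6 others of that day, which ran from 212 to 257. On day 4 the groups overlapped again, with 201 and 233 against 198 and 224 (-0.04 ± 0.18). On the same day 3, the macrophage marker list summed to 38704 to 39191 CPM in Trex1 FL/FL and 45443 to 47728 in Trex1 WT/FL libraries after 4-OHT. Lyz2 was the largest single part of this sum. By gene, the median log2 difference of the 8 markers was -0.04, against -0.0073 over all genes, and 0 were called. Ighm measured 78.6 and 72.5 CPM in Trex1 FL/FL against 193 and 184 in Trex1 WT/FL libraries (-1.32 ± 0.09). The part of the marker sum or of Ighm in the Ms4a4a value was not tested.

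**Figure D4:**
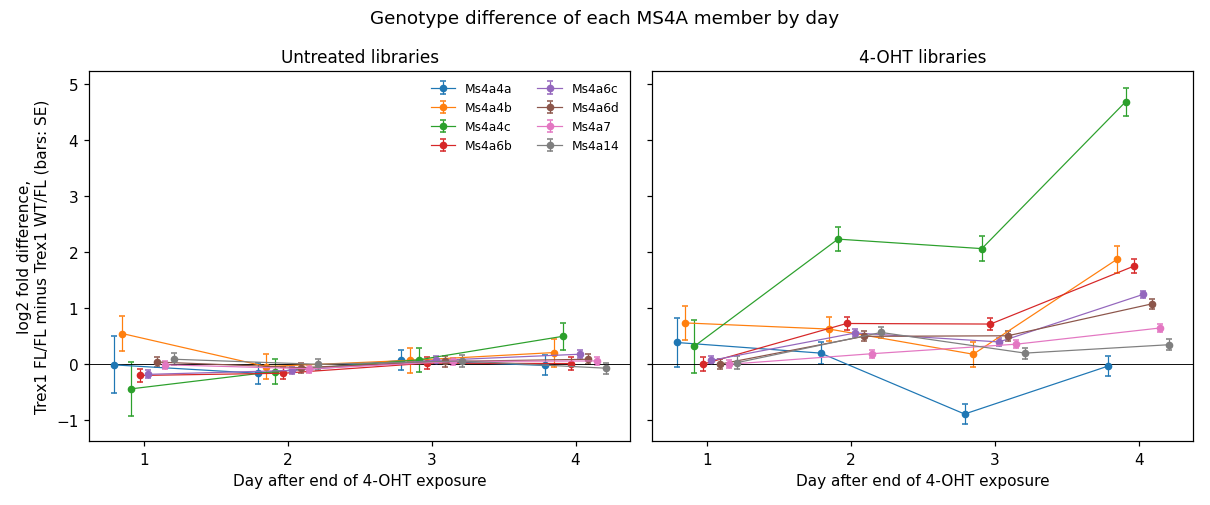
Log2 fold difference between Trex1 FL/FL and Trex1 WT/FL libraries by day for the 8 expressed members, untreated (left) and after 4-OHT (right), with SE bars and points shifted sideways for legibility. Untreated differences lie between -0.45 and 0.54 and none was called; after 4-OHT Ms4a4c reaches 4.69 on day 4, and Ms4a4a stands at -0.90 on day 3.

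The day 4 difference after 4-OHT and the step from day 3 to day 4 in untreated cells, which share no library, can be set side by side for each member. From the most negative to the most positive, the log2 changes in untreated cells were -2.27 for Ms4a4c, -1.28 for Ms4a4b, -0.88 for Ms4a6b, -0.63 for Ms4a6c, -0.50 for Ms4a6d, -0.28 for Ms4a4a, -0.12 for Ms4a7 and 0.12 for Ms4a14. The genotype differences after 4-OHT on day 4 were, in the same order, 4.69, 1.87, 1.75, 1.24, 1.07, -0.04, 0.64 and 0.34. The 4-OHT contrast is counted as used, and nothing is read from the order. In 4-OHT-treated Trex1 FL/FL cells the change from day 3 to day 4 was between -0.11 and 0.63 for all 8 genes.

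Levels of different genes were compared per kb of exon, since the members differ in length. On day 4 in untreated Trex1 WT/FL cells the order was Ms4a7 (188 CPM per kb), Ms4a4a (132), Ms4a6d (130), Ms4a6c (79.4), Ms4a6b (53.7), Ms4a14 (21.3), Ms4a4c (10.6) and Ms4a4b (0.17), and of these neighbours only Ms4a4a and Ms4a6d overlapped. In the Trex1 FL/FL cells that had received 4-OHT, Ms4a4c led on that day with 458 ± 53.4 CPM per kb (SD, n = 2), ahead of Ms4a7 (337), Ms4a6d (302), Ms4a6c (226), Ms4a6b (212), Ms4a4a (148), Ms4a14 (28.7) and Ms4a4b (0.711), with overlap between Ms4a6c and Ms4a6b only. Dividing by the longest transcript in place of the union of exons kept Ms4a4c first (490) and exchanged Ms4a6c (385) and Ms4a6d (369), and in untreated cells it exchanged Ms4a6d (160) and Ms4a4a (144).

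**Figure D5:**
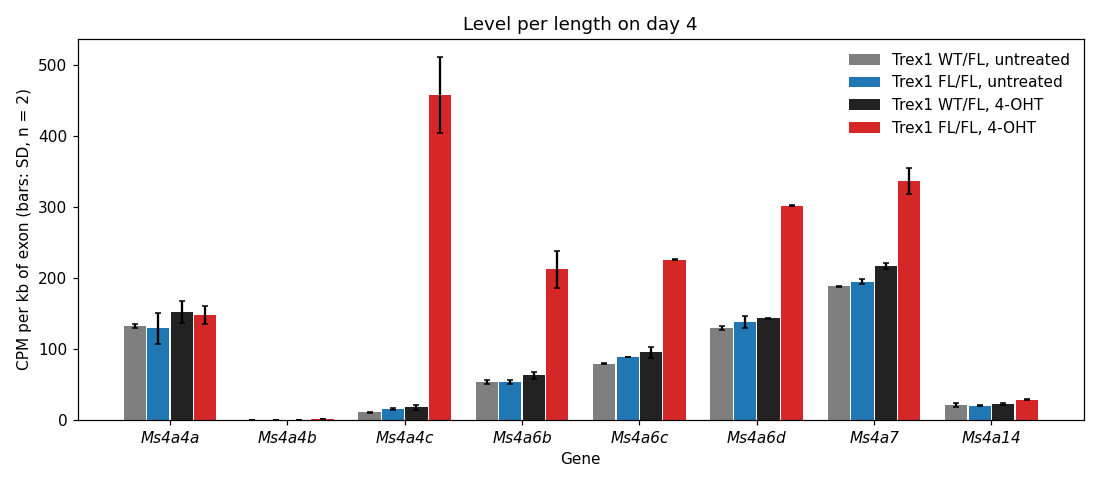
Level on day 4 in CPM per kb of exon for the 8 expressed members (bars are means of 2 libraries, whiskers SD) in the 4 groups. Ms4a4c goes from 10.6 in untreated Trex1 WT/FL cells to 458 in 4-OHT-treated Trex1 FL/FL cells, where it is the highest of the members, and Ms4a4a is between 129 and 152 in all 4 groups.

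Counted together, the 10 members made up 1972 and 2005 CPM in untreated Trex1 WT/FL libraries of day 4, 2261 and 2358 after 4-OHT, and 5474 and 5066 in 4-OHT-treated Trex1 FL/FL libraries. On day 1 the same sums were 407 and 436, 405 and 393, and 382 and 422, with no separation. Ms4a4c held 0.986% of the family's reads in untreated Trex1 WT/FL cells on day 4 and 16.1% in 4-OHT-treated Trex1 FL/FL cells, while the share of Ms4a7 was 42.1% in the former and 28.5% in the latter and that of Ms4a4a 9.42% and 4.01%.

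Tmem176a and Tmem176b, relatives of the MS4A family on chromosome 6 that are expressed in myeloid cells, rose in untreated cells. Tmem176b averaged 32.5, 244, 1114 and 992 CPM on days 1 to 4 in untreated Trex1 WT/FL libraries. Both genes were called higher in the steps to days 2 and 3, where 6.32% and 6.76% of all genes were called. After 4-OHT their genotype differences went the other way from Ms4a4c, with -0.45 ± 0.06, -0.94 ± 0.06 and -0.34 ± 0.06 for Tmem176a and -0.31 ± 0.08, -0.69 ± 0.07 and -0.19 ± 0.07 for Tmem176b on days 2, 3 and 4 (log2, SE), all inside the fold limit. Like Ms4a4a, both were lowest relative to the controls on day 3.

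Of 9 genes for partners and downstream components of MS4A proteins, 8 were tested, and 0 were called between the genotypes after 4-OHT on any day. Of all genes, 0.0131%, 0.583%, 0.872% and 2.98% were called on days 1 to 4. The median log2 differences of the 8 genes were -0.07, -0.08, -0.16 and 0.34, against -0.01, -0.0097, -0.0073 and -0.04 over all genes. Clec7a, which encodes dectin-1, differed by 0.57 ± 0.12 on day 4, and Il1b by 1.03 ± 0.23. In untreated cells 1 of the 8, Il1b, was called higher on day 3 than on day 2 (log2 4.21 ± 0.20, edgeR adjusted p = 2.22e-13), where 6.76% of all genes were called in either direction. Vsig4, the partner of MS4A6D, had at most 2 counts in a library and Tnfrsf18, which encodes GITR, at most 23.

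A panel of 8 interferon-stimulated genes (Ifi44, Oasl1, Usp18, Isg15, Oas1a, Ifit3, Irf7 and Cxcl10) was set beside the members. After 4-OHT 0, 6, 1 and 7 of the 8 were called higher in Trex1 FL/FL cells on days 1 to 4, with median log2 differences of 0.47, 1.76, 1.35 and 2.89. Of all genes, 0.0131%, 0.583%, 0.872% and 2.98% were called in either direction on these days. In untreated cells all 8 were called higher on day 2 than on day 1 (median 3.63), 0 between days 2 and 3 (median -0.08), and 1 was called lower on day 4 than on day 3 (median -1.06). In these 3 steps 6.32%, 6.76% and 1.21% of all genes were called. Ms4a4c thus lay above the panel median after 4-OHT on days 2, 3 and 4, and Ms4a6b, Ms4a6c and Ms4a6d lay below it. The study chose this panel as interferon-response genes, so its direction is not independent evidence.

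Across the 32 libraries the 8 expressed members followed similar courses, with Pearson correlations of log2 CPM between 0.804 and 0.997 over their 28 pairs, a description that carries the shared rise over days. The highest was between Ms4a6c and Ms4a6b (0.997) and the lowest between Ms4a4a and Ms4a4b (0.804). Outside the family the genes most like Ms4a4c were Sp140 (0.995), Znfx1 (0.995) and Xaf1 (0.994), those most like Ms4a6b were Ddx60 (0.996), Trim30d (0.996) and Trim12a (0.995), and those most like Ms4a6c were Tlr7 (0.996), Ly6e (0.995) and H2-T23 (0.995). For Ms4a4b they were Ifi203 (0.974), Sp100 (0.974) and Trim12c (0.973), for Ms4a6d Samd9l, Gm20559 and Oas1g (0.991, 0.991 and 0.990), and for Ms4a14 Oas2, Nfxl1 and Map3k8 (0.991, 0.991 and 0.990). Ms4a7 was closest to B2m (0.996), P2rx4 (0.995) and Mpeg1 (0.995), and Ms4a4a to Arap1, Dse and Cp (0.994 each).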

How the data were processed

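RNA of 32 BMDM libraries was sequenced. The authors deposited estimated counts per Ensembl gene for all libraries, stored as whole numbers. According to the study's methods and the submitters' processing notes, reads were quality-checked with FastQC 11.9, quantified with Salmon against GRCm39, summarised with tximport and analysed with DESeq2 1.32. The deposited estimated counts share ambiguous reads among similar transcripts, which matters for the Ms4a4 and Ms4a6 copies. From there, edgeR 4.0.16 (R 4.3.3) was used with TMM scaling, the filterByExpr filter with a minimum count of 10, and a robust quasi-likelihood fit with 1 mean per group over all 16 groups (16 residual degrees of freedom). SE is the absolute log2 fold change divided by the square root of F. Gene names, positions and sequences came from the GRCm39 annotation, in which 51048 of 54281 identifiers were found, the rest holding 0.32% of counts. The fit was tested on simulated counts. The members, marker lists and comparison lists were chosen with earlier results of these data known. Named genes were the members, Trex1, other family genes, partners, the interferon panel and, for each member averaging at least 1 CPM, the 3 most correlated other genes. Alternatives were another scaling, filter, tool, threshold or subset and each library left out. One marker list and 1 sequence window are not reported here.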

Additional observations from a re-analysis of the deposited data

Results flagged for a closer look

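The genotype difference after 4-OHT was larger than that in untreated cells for Ms4a4c by 2.37 on day 2, 1.99 on day 3 and 4.20 on day 4 (log2), for Ms4a4b by 1.66 on day 4 and for Ms4a6b by 1.75 on day 4. It was also larger on day 4 than on day 3 for Ms4a4c (2.63) and Ms4a4b (1.69). These 7 values passed the call rule in an interaction term of the edgeR fit, but they come from the contrast that counts as used in choosing the members and are given as a description. Of all 15257 genes, 81, 83 and 343 were called against the untreated difference on days 2, 3 and 4, and 139 between days 3 and 4. Between days 1 and 4 the difference after 4-OHT was called for 326 genes, 2 of them members. Groups of 2 libraries are too small for a test of single outlying libraries.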

How the results depend on the processing

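The number of members called in each of 15 comparisons was compared between the analysis reported above and its alternatives. It was the same under RLE and upper-quartile scaling, library totals alone (added after the data were seen), a minimum count of 1, no filter, DESeq2, and, for the comparisons to which they apply, the treated or untreated libraries alone and the subtraction of the untreated genotype difference. Library totals alone moved the median log2 change of all genes by -0.12 to 0.02. With adjusted p below 0.05 and no minimum fold change the counts were 5, 6 and 7 on days 2, 3 and 4 for the genotypes after 4-OHT, and 8, 6 and 5 for the steps to days 2, 3 and 4 in untreated cells. Leaving out each library in turn, with the lone library of a group assumed to vary like the others, kept all counts, except that the step from day 3 to day 4 in untreated cells ranged from 1 to 2, since Ms4a4b (log2 -1.52) was called as well without the first Trex1 FL/FL library of day 4. No paired analysis was possible because the labels name no animal, batch or day that would tie a library of 1 group to a library of another. Ms4a4b, at 15 to 415 counts, and Ms4a8a, at 0 to 23, are limited by depth. Over all genes, dropping the low-count filter raised the calls for the genotypes after 4-OHT on days 1 to 3 from 2, 89 and 133 to 35, 150 and 202, for the untreated genotypes on days 1 to 4 from 0, 0, 0 and 1 to 44, 37, 34 and 62, and for 4-OHT in Trex1 WT/FL cells from 0, 2, 8 and 2 to 30, 39, 48 and 34. DESeq2 called 1, 4, 3 and 0 genes between the untreated genotypes and 2, 6, 11 and 7 for 4-OHT in Trex1 WT/FL cells. Subtracting the untreated genotype difference gave 1 and 83 genes on days 1 and 3. Adjusted p below 0.05 with no minimum fold change gave 3, 1920, 2901 and 4607 genes for the genotypes after 4-OHT, 0, 3, 0 and 306 for the untreated genotypes, 1, 15, 82 and 72 for 4-OHT in Trex1 WT/FL cells, and 8888, 8778 and 4880 for the untreated day steps.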
